A study of Mus musculus with 9 samples.

Results

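The expression of 10 genes of the guanylate-binding protein (GBP) and immunity-related GTPase (IRG) families was examined in mouse lungs with lipopolysaccharide (LPS) injury, with and without trimethylamine N-oxide (TMAO). They were taken by symbol from a table of 52381 genes, namely Gbp2, Gbp3, Gbp4, Gbp5, Gbp6, Gbp7, Irgm1, Irgm2, Igtp and Iigp1. Each of the 10 symbols occurred in 1 row, and all 10 genes passed the filter on low values with 11817 genes in all. Per the labels, 4 mice had acute lung injury (ALI) induced by LPS, a component of the Gram-negative bacterial envelope, and form the LPS-ALI group. The TMAO group holds 5 LPS-injured mice that were also treated with TMAO, an oxidised amine made from gut bacterial metabolites. LPS was thus given to every mouse, uninjured lungs were not analysed here, and the labels state no strain, age, dose or time. The labels give lung as the tissue, although their text on RNA extraction speaks of platelets. The surfactant gene set of alveolar type 2 cells summed to 1246 to 14461 FPKM per library and the platelet set to 18.6 to 76.5 FPKM.

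GBPs and IRGs are GTPases that cells make in response to interferons, above all interferon gamma. GBPs are large, dynamin-related proteins that assemble on pathogen-containing vacuoles and on free LPS-bearing bacteria, where they help caspase-11, encoded by Casp4, to detect LPS. IRGs act beside them on vacuoles: in the mouse, Irgm1, Irgm2 and Igtp (Irgm3) are regulators that sit on host membranes and hold effector IRGs such as Iigp1 (Irga6) inactive there. Promoters of interferon-induced genes carry short control elements, the gamma-activated sequence (GAS) and the interferon-stimulated response element (ISRE), the latter bound by interferon regulatory factors.

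Promoter windows of 250 bases before the start site were taken from RefSeq on GRCm38.p6 for 7 of the 10 genes, with a pair of windows for Gbp3. Windows of Gbp4, Gbp6 and Iigp1 were not analysed here. The windows were searched on both strands for the GAS core TTCNNNGAA, which reads the same on either strand, and for the ISRE core of GAAA, any 2 bases and GAAA, which reads TTTC, any 2 bases and TTTC on the opposite strand. All 32851 windows of the same length in the table held these cores in 7.02% and 2.98% of cases, and both in 0.332%. Among the 8 windows here, 7 held an ISRE match and 4, those of Gbp5, Gbp7, Irgm2 and Igtp, held both cores. The windows of Igtp and Irgm2 are nearly the same, and Irgm2 and Gbp7 stand apart from Igtp in the expression data. The Igtp, Irgm2 and Gbp7 windows are therefore shown. They are written 5′ to 3′ on the plus strand, with the matches in capitals, from chr11:58199306-58199555, chr11:58214727-58214976 and chr3:142530086-142530335 in that order.
Igtp: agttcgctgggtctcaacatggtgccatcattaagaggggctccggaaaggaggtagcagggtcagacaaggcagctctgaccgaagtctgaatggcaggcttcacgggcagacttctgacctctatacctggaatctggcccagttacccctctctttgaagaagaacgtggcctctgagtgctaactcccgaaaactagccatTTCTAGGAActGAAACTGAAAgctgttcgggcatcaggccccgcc
Irgm2: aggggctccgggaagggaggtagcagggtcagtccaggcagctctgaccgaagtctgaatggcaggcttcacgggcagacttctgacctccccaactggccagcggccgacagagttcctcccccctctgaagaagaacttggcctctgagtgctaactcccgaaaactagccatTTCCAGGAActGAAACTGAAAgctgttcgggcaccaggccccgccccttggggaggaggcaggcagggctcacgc
Gbp7: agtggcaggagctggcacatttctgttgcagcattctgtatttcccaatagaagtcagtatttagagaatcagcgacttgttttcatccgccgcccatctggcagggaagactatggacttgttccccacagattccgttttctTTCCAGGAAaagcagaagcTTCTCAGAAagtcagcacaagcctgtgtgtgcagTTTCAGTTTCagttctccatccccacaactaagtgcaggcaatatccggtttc
The Igtp and Irgm2 windows aligned over 221 columns with 197 identical bases, or 89.1%. In both, a GAS match and an ISRE match lay side by side. They started 45 and 34 bases before the RefSeq start site of Igtp and 75 and 64 bases before that of Irgm2. The Irgm2 window lies inside the Irgm2 gene of the GENCODE M21 annotation, which starts at chr11:58199618, close after the Igtp window. Which start site Irgm2 used in these lungs was not tested. In the Gbp7 window a pair of GAS matches started 106 and 87 bases upstream and the ISRE match 53 bases upstream. These are matches of letters and not measured binding.

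The windows of Gbp2, Gbp3, Gbp5 and Irgm1 overlap annotated exons, and short stretches around the matches nearest the start site are shown for comparison, 5′ to 3′ on the strand of the gene.
Gbp2: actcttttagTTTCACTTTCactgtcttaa
Gbp3: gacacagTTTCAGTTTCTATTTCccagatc
Gbp5: tggccgttatTTCTCAGAAccaagcacag
Irgm1: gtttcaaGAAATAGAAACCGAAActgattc
They come from chr3:142620594-142620623, chr3:142559992-142560021, chr3:142496872-142496900 and chr11:48871428-48871457. Gbp2, Gbp3 and Irgm1 carried ISRE matches here, a single one 59 bases upstream in Gbp2, and overlapping pairs starting 45 and 39 bases upstream in Gbp3 and 30 and 24 bases upstream in Irgm1. The stretch of Gbp5 holds its proximal GAS match at 52 bases, and its window has a further GAS match at 245 bases and an ISRE match between them. In the GENCODE M21 annotation the windows of Irgm1 and Gbp5 lie inside their genes, with 250 and 34 of 250 bases in annotated exons. The Gbp2 match lies just inside its gene, which starts at chr3:142620602. Distances are from the RefSeq start sites, and which start sites these genes used in these lungs was not tested.

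The genes sit in clusters of related copies, which bears on how their reads can be assigned. On GRCm38, in the GENCODE M21 annotation, chr3 carries Gbp5 at chr3:142493978-142522344, Gbp7 at chr3:142530342-142550149, Gbp3 at chr3:142560026-142573209 and Gbp2 at chr3:142620602-142638008, all on the plus strand. On the minus strand of chr5 lie Gbp4 at chr5:105115767-105139586 and Gbp6 at chr5:105270702-105293698. Irgm1 lies at chr11:48861968-48871683 on the minus strand, and Igtp at chr11:58199556-58207591 and Irgm2 at chr11:58199618-58222782 overlap on the plus strand. Iigp1 is at chr18:60376027-60392634, plus strand. Of the 50-base words in its annotated transcripts, Gbp6 shared 70.7% with other genes, mainly the overlapping gene model Gm43302, so that its level is uncertain. The shared part was 12.7% for Gbp7, 11.8% for Igtp, 7.77% for Irgm2, 7.70% for Gbp4 and 0.310% to 3.75% for the other 5. Igtp and Irgm2 share 162 exonic bases in the annotation, and no source used here says how reads there were assigned.

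Values are FPKM, fragments scaled to gene length and to library size. Relative sequencing depth, estimated from the steps between low values, was 0.381 to 1 and lowest in TMAO replicate 5, which also had the fewest genes at 1 FPKM or more, 8846 against 11158 to 12239 in the other 8 libraries. In the labels, a code starting with X marks LPS-ALI replicates 3 and 4 and a code starting with B the remaining 7 libraries, with no word on what the letters stand for. Those X-coded libraries were the lowest and the highest of their group for all 10 genes. LPS-ALI replicate 4 stood apart in summed cell type markers too, although cell numbers were not measured. Its alveolar type 2 markers summed to 1246 FPKM against 4869 to 14461 in the others, and its ciliated cell markers to 218 against 57.3 to 144. Of the 6 ciliated markers, 3 were highest there and Foxj1 alone was at least 2-fold above the next library. Its alveolar type 1 markers summed to 2620 FPKM against 540 to 1212, with 2 of 5 highest there and Hopx alone at least 2-fold. The differences of the 10 genes and the list medians are therefore given with and without LPS-ALI replicate 4. Differences are TMAO minus LPS-ALI on the log2(FPKM + 1) scale, which understates the change of low genes, and are relative to the median tested gene, which was itself 0.17 lower in TMAO. Tests were run with limma over all 11817 genes and, gene by gene, by exact two-sided permutation of the 9 libraries. Both took the log2 values before the median gene was subtracted. Each p-value thus belongs to the unshifted difference and not to the relative difference printed beside it. For Irgm2 the unshifted difference was -0.12 and the relative difference 0.05. The p-values measure the spread between mice, which the labels number separately.

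Between the groups, no GBP or IRG gene was called as changed. This does not show absence of change, since only 5% of simulated 2-fold changes were called at this sample size. None of the 10 passed limma's adjusted p of 0.05, at which 0% of all tested genes were called, and none passed an unadjusted p of 0.05, which 2.93% of tested genes did in the lower direction and 0.423% in the higher. The limma adjusted p was 0.998 for each of the 10. In 9 of the 10 genes the mean was lower in TMAO than the median gene, with a median relative difference of -0.58 log2 units over the 10. Without LPS-ALI replicate 4 that median was 0.08 and 3 of the 10 lay below 0. Within the B-coded libraries, 2 LPS-ALI against 5 TMAO, it was -0.34 and all 10 lay below 0, from -0.77 to -0.12. X-coded libraries exist only in the LPS-ALI group. With LPS-ALI replicate 3 alone left out, all 10 also lay below 0, from -1.74 to -0.26. The sign thus depended on which LPS-ALI library was left out. LPS-ALI replicate 4 had the highest level of all 10 genes, as it did for 26.9% of tested genes. For 8 of the 10 that level was at least 2-fold above the next library, against 4.06% of tested genes. In whole lung, a larger number of expressing cells and more RNA per cell cannot be told apart.

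**Figure D1:**
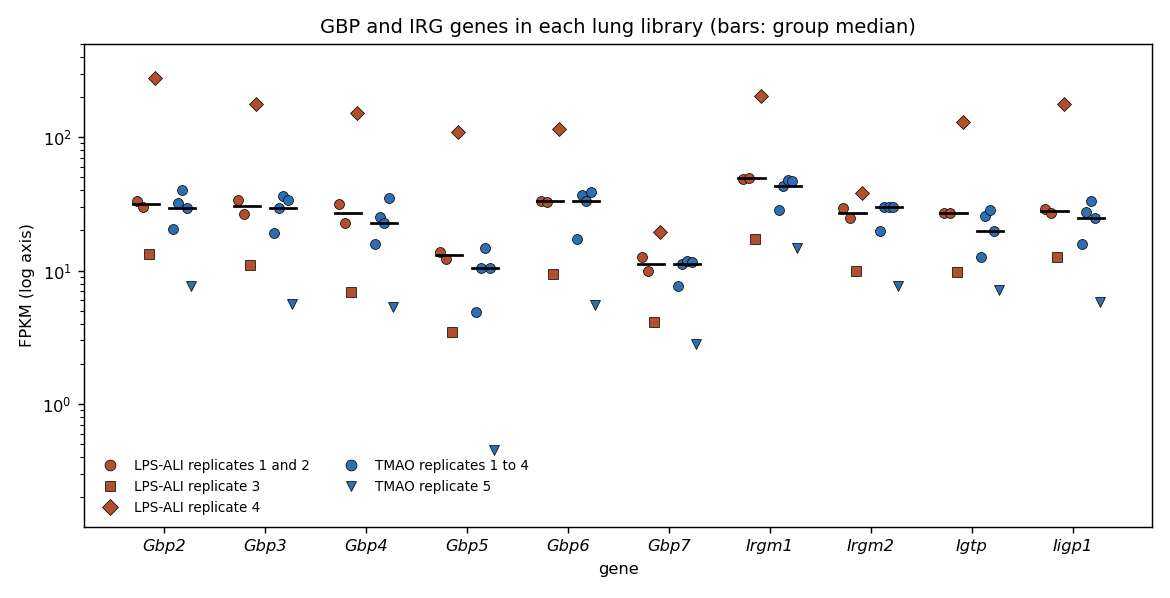
FPKM (log axis) of the 10 genes in each of the 4 LPS-ALI (red) and 5 TMAO (blue) lungs, with bars at group medians. LPS-ALI replicate 4 (diamonds) is the highest library for all 10 genes and TMAO replicate 5 (triangles) the lowest. LPS-ALI replicate 3 is the next lowest for all 10, and the remaining libraries of both groups lie above it and below LPS-ALI replicate 4.

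Gbp2, a prenylated GBP that coats bacteria and vacuoles, was measured at 33.37, 30, 13.24 and 276.91 FPKM in LPS-ALI replicates 1 to 4. In TMAO replicates 1 to 5 it was at 20.61, 31.97, 40.21, 29.24 and 7.61 FPKM. Apart from LPS-ALI replicate 4, the groups covered the same range, and that library was 6.89-fold above the next. The means were 88.4 ± 125.99 (SD, n = 4) and 25.9 ± 12.4 FPKM (SD, n = 5), and the LPS-ALI mean without replicate 4 was 25.5 ± 10.8 FPKM (SD, n = 3). The relative log2 difference of -0.76 (SE 0.69, exact permutation p = 0.389) became 0.07 without that library (exact permutation p = 0.929).

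Gbp5, also a prenylated GBP and one linked to NLRP3 inflammasome assembly, showed the same pattern at a lower level. It was at 13.80, 12.25, 3.47 and 108.54 FPKM in LPS-ALI and at 4.87, 10.40, 14.85, 10.54 and 0.45 FPKM in TMAO. LPS-ALI replicate 4 was 7.31-fold above the next library, the largest step among the 10 genes, and TMAO replicate 5 was far below the rest. Its relative difference, -1.15 (SE 0.81, exact permutation p = 0.357), moved to -0.30 on leaving out LPS-ALI replicate 4. TMAO replicate 5 bears on this gene as well, since leaving out both libraries gave 0.04.

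Gbp3, a neighbour of Gbp2 in the chr3 cluster, was at 33.77, 26.79, 11.10 and 175.97 FPKM in LPS-ALI and at 19.22, 29.29, 36.35, 34.08 and 5.59 FPKM in TMAO. Gbp4, from the chr5 cluster, was at 31.46, 22.93, 6.88 and 150.80 FPKM in LPS-ALI and at 15.91, 25.25, 22.81, 35.20 and 5.35 FPKM in TMAO. Both were over 4-fold higher in LPS-ALI replicate 4 than in any other library, by 4.84-fold and 4.28-fold. Gbp6, whose reads are hardest to assign, was at 33.52, 32.55, 9.43 and 115.85 FPKM in LPS-ALI and at 17.40, 36.80, 33.01, 38.61 and 5.48 FPKM in TMAO, a 3.00-fold step. The relative differences of Gbp3, Gbp4 and Gbp6 were -0.61, -0.54 and -0.43, with exact permutation p of 0.429, 0.444 and 0.484. Without LPS-ALI replicate 4 they were 0.09, 0.18 and 0.12.

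Gbp7, reported to bring NADPH oxidase components to vacuoles, did not share that step. It was at 12.56, 10, 4.09 and 19.47 FPKM in LPS-ALI and at 7.63, 11.25, 11.72, 11.56 and 2.84 FPKM in TMAO. LPS-ALI replicate 4 was still the highest, by 1.55-fold, but 964 tested genes had a larger step there, against 32 for Gbp5 and 37 for Gbp2. The group means were 11.5 ± 6.37 (SD, n = 4) and 9.00 ± 3.84 FPKM (SD, n = 5), with a relative difference of -0.11 (SE 0.47, exact permutation p = 0.579) that turned to 0.14 without LPS-ALI replicate 4.

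Of the regulatory IRGs, Irgm1 had the highest level of the 10 genes, with a median of 46.9 FPKM over the 9 libraries. It was at 48.90, 49.39, 17.39 and 202.11 FPKM in LPS-ALI and at 28.28, 43.41, 47.65, 46.91 and 14.67 FPKM in TMAO. All 5 TMAO values were below the LPS-ALI median of 49.1, yet the ranges overlapped because LPS-ALI replicate 3 was lower than 4 TMAO libraries. The relative difference was -0.52 (SE 0.56, exact permutation p = 0.349), and 0.07 without LPS-ALI replicate 4, which was 4.09-fold above the next library.

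Igtp and Irgm2, the regulators with near-identical promoter windows, separated in LPS-ALI replicate 4. Igtp was at 27.00, 27.21, 9.77 and 129.14 FPKM in LPS-ALI and at 12.68, 25.73, 28.49, 19.95 and 7.14 FPKM in TMAO. Irgm2 was at 29.55, 24.58, 9.95 and 38.13 FPKM in LPS-ALI and at 19.91, 30.12, 29.83, 29.87 and 7.69 FPKM in TMAO. In the other 8 libraries Igtp was 0.64 to 1.11 times Irgm2, whereas in LPS-ALI replicate 4 it was 3.39 times Irgm2. The step of that library over the next was 4.53-fold for Igtp and 1.27-fold for Irgm2, and 1724 tested genes exceeded the latter. The relative difference was -0.69 for Igtp (SE 0.59, exact permutation p = 0.302) and 0.05 for Irgm2 (SE 0.46, exact permutation p = 0.778), the single gene of the 10 above 0, although at -0.066 without the filter on low values. With LPS-ALI replicate 4 left out, Igtp was at -0.058 (exact permutation p = 0.696) and Irgm2 at 0.25 (exact permutation p = 0.839). Whether the split between these overlapping genes depends on how shared reads were assigned was not tested.

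Iigp1, the effector IRG among the 10, was at 29.10, 27.21, 12.60 and 176.76 FPKM in LPS-ALI. In TMAO it was at 15.87, 27.57, 33.51, 24.77 and 5.85 FPKM. The mean of 61.4 ± 77.2 FPKM (SD, n = 4) in LPS-ALI was 23.0 ± 9.03 FPKM (SD, n = 3) without replicate 4, beside 21.5 ± 10.8 FPKM (SD, n = 5) in TMAO. Its relative difference was -0.78 (SE 0.64, exact permutation p = 0.381) and -0.07 without that library.

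**Figure D2:**
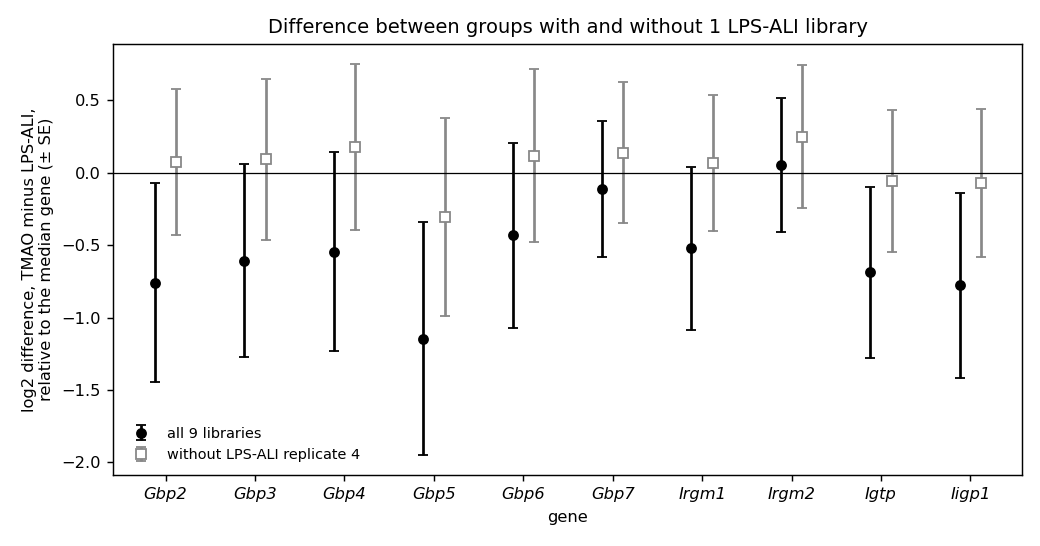
Log2 difference TMAO minus LPS-ALI, relative to the median tested gene, with its standard error from limma, for all 9 libraries (filled) and without LPS-ALI replicate 4 (open). With all libraries 9 of the 10 genes lie below 0, from -0.11 to -1.15, and without that library 3 do, the lowest at -0.30.

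The 10 genes also shared much of their order among the other libraries. All 10 were lowest in LPS-ALI replicate 3 within that group, as were 43.4% of tested genes, and lowest of the 9 libraries in TMAO replicate 5, as were 74.3%. In TMAO replicate 1 all 10 were below TMAO replicates 2 to 4, against 53.3% of tested genes. After subtraction of each library's median tested gene, the median of the 10 genes was 1.94, 1.93, 0.67 and 4.16 log2 units in LPS-ALI replicates 1 to 4, and 1.40, 1.86, 2.17, 1.59 and 1.01 in TMAO replicates 1 to 5. On that scale the lowest library was LPS-ALI replicate 3 and no longer TMAO replicate 5. The 45 pairs of genes correlated over the 9 libraries with Pearson's r from 0.74 to 1.00, median 0.94, and over the 8 libraries without LPS-ALI replicate 4 from 0.71 to 0.99, median 0.90. These r are a description on library-centred values, since the genes share libraries and depth.

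**Figure D3:**
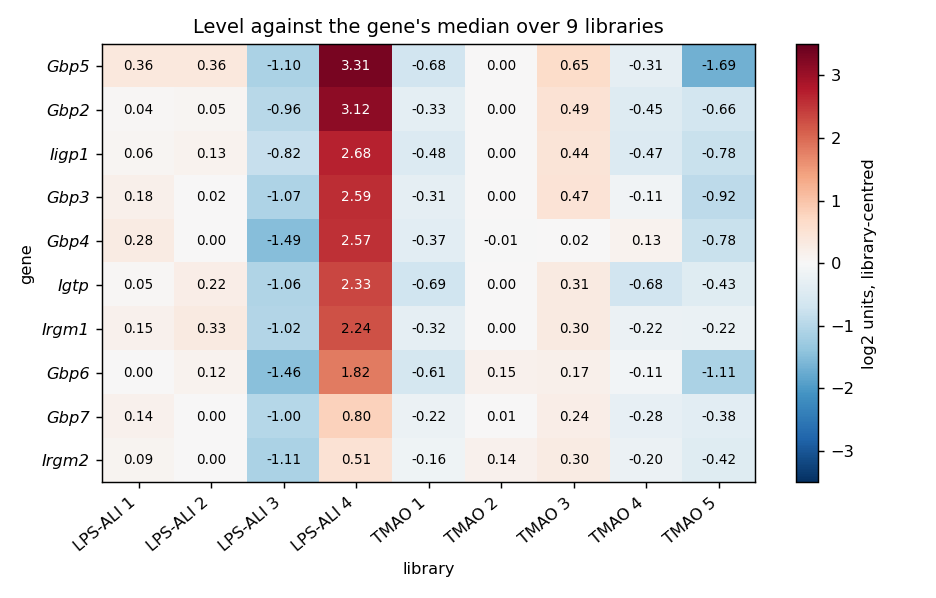
Library-centred log2 level of each gene minus its median over the 9 libraries, with genes ordered by LPS-ALI replicate 4. That library ranges from 3.31 for Gbp5 and 3.12 for Gbp2 down to 0.80 for Gbp7 and 0.51 for Irgm2, while LPS-ALI replicate 3 is between -0.82 and -1.49 for every gene.

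Comparing levels per length, the median FPKM over the 9 libraries ran from Irgm1 at 46.9 through Gbp6 at 33.0, Gbp2 at 30, Irgm2 at 29.6, Gbp3 at 29.3, Iigp1 at 27.2, Igtp at 25.7 and Gbp4 at 22.9 to Gbp7 at 11.3 and Gbp5 at 10.5. Among neighbours in that order, Irgm1 was above Gbp6 and Gbp4 was above Gbp7 in 9 of 9 libraries. The other neighbours changed places between libraries, so 7 genes from Gbp6 to Gbp4 form a middle group with no fixed order. Levels were also set against Irgm2 in the same library, which takes out depth. Irgm2 had the smallest step of the 10 genes in LPS-ALI replicate 4, 1.27-fold, so higher ratios there are partly built in by this choice. Gbp2 ran from 0.98 to 1.35 times Irgm2 in 8 libraries and was at 7.26 in LPS-ALI replicate 4. The corresponding values were 0.73 to 1.22 and 4.62 for Gbp3, 0.69 to 1.18 and 3.95 for Gbp4, and 0.06 to 0.50 and 2.85 for Gbp5. They were 0.71 to 1.32 and 3.04 for Gbp6, 1.42 to 2.01 and 5.30 for Irgm1, and 0.76 to 1.27 and 4.64 for Iigp1. Gbp7 alone kept nearly the same ratio to Irgm2, with 0.37 to 0.43 in 8 libraries and 0.51 in LPS-ALI replicate 4.

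**Figure D4:**
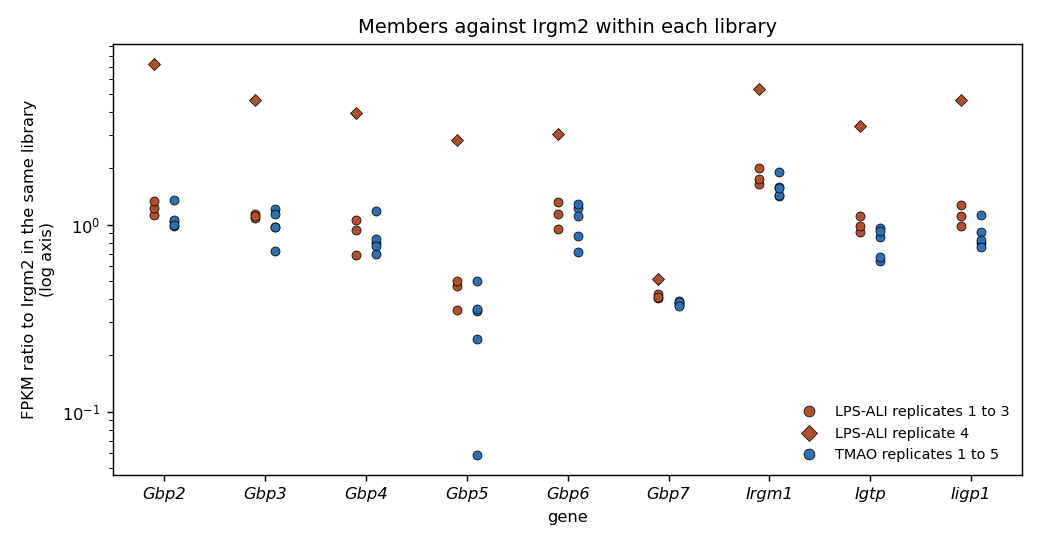
FPKM of each gene divided by that of Irgm2 in the same library (log axis), with LPS-ALI replicate 4 as diamonds. The diamond of Gbp2 is at 7.26 over a range of 0.98 to 1.35, and that of Gbp7 at 0.51 over 0.37 to 0.43.

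The rest of both families was examined as a list of 17 genes, of which 12 passed the filter. None of the 12 passed limma's adjusted threshold, 7 lay below the median gene, and the median relative difference was -0.18, or 0.12 without LPS-ALI replicate 4. In that library 9 of the 12 were at their highest and 4, Gbp10, Gbp11, Tgtp1 and Gm12250, were at least 2-fold above the next. Gm12250 (Irgb10), an effector IRG that acts on bacterial membranes, was at 27.75 FPKM there and at 0.52 to 5.79 FPKM elsewhere. Tgtp1 and Tgtp2 (the Irgb6 copies), effector IRGs of toxoplasma vacuoles, share 81.2% and 86.6% of their 50-base words with other genes, so the split between them is uncertain. Tgtp1 was at 104.04 FPKM in LPS-ALI replicate 4 and at 4.94 to 26.23 FPKM in the other 8 libraries, while Tgtp2 was at 73.94 and at 12.15 to 63.18 FPKM. Gbp9, on chr5 beside Gbp4, also showed a small step, with 39.37 FPKM there and 33.33 FPKM in the next library. Ifi47 (Irgd) was at 103.41 FPKM in that library and at 16.47 to 57.09 FPKM in the others, with a relative difference of 0.04 that was 0.44 without it. Gbp2b, the mouse gene also called Gbp1, did not pass the filter and was at 0 to 0.08 FPKM throughout.

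Upstream, the inducing cytokine was barely measured. Ifng was at 0.71, 0, 0.14 and 0.45 FPKM in LPS-ALI and at 0, 0.11, 0, 0.11 and 0 FPKM in TMAO, under the filter, and its range overlapped between groups. In the interferon gamma signalling list 12 of 13 genes were tested, 0 passed the adjusted threshold and 9 lay below the median gene, with a median of -0.11. Without LPS-ALI replicate 4, 7 lay below it and the median was -0.053. Irf1, which binds ISRE sites, was at 22.73 to 60.94 FPKM in LPS-ALI and at 10.89 to 50.09 FPKM in TMAO, a relative difference of -0.04 that was 0.015 with median-of-ratios scaling and 0.049 with quantile normalization. Irf8, a myeloid interferon regulatory factor, was at 25.43 FPKM in LPS-ALI replicate 4 and at 1.10 to 6.09 FPKM elsewhere. Its relative difference was -0.98 (exact permutation p = 0.0317, limma adjusted p = 0.998), and -0.52 with LPS-ALI replicate 4 left out (exact permutation p = 0.143). Socs1, the feedback inhibitor of the receptor kinases, was at 1.38 to 2.37 FPKM in LPS-ALI and 0.71 to 1.31 FPKM in TMAO with no overlap, as 1.36% of tested genes were in that direction, and missed limma's adjusted threshold (adjusted p = 0.998).

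Other interferon gamma targets shared part of this pattern. Of 26 listed, 23 were tested, 0 passed the adjusted threshold and 21 lay below the median gene, with a median of -0.49, or -0.29 without LPS-ALI replicate 4. In that library 17 of the 23 were highest and 8 were at least 2-fold above the next, among them Cxcl9, Cxcl10, Nlrc5 and Ido1. Cxcl9, a chemokine for CXCR3-bearing lymphocytes, was at 103.23, 111.18, 2.80 and 392.94 FPKM in LPS-ALI and at 19.57, 86.51, 73.62, 45.70 and 21.77 FPKM in TMAO. Like the GBP genes it was highest in LPS-ALI replicate 4 and lowest of its group in replicate 3. Psme2, a subunit of the proteasome activator PA28, was at 167.83 to 326.39 FPKM in LPS-ALI and at 82.71 to 157.64 FPKM in TMAO, so its groups did not overlap. Its relative difference was -0.59 (SE 0.32, exact permutation p = 0.00794, the smallest these permutations can give), with a limma adjusted p of 0.998. Without LPS-ALI replicate 4 it was -0.42 (exact permutation p = 0.0714). Psme2 was named for its small limma p within its list, so a small permutation p and a lack of overlap are partly built in. Of all tested genes, 1.36% were without overlap in that direction.

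Type I interferon genes were also mostly highest in LPS-ALI replicate 4. Of 17 target genes 0 passed the adjusted threshold, 16 lay below the median gene, and the median of -0.44 was -0.04 without LPS-ALI replicate 4. In that library 13 of 17 were highest and 9 were at least 2-fold above the next. In the signalling list, 9 of 10 genes were tested, 0 passed and 7 lay below, with a median of -0.39, or -0.12 without that library. Ifnb1 was listed at 0 in all 9 libraries. Isg15, a ubiquitin-like protein, was at 675.91 FPKM in LPS-ALI replicate 4 and at 23.38 to 160.49 FPKM elsewhere, and Irf9, part of the ISRE-binding complex, was at 49.24 and at 9.95 to 41.24 FPKM. The related antiviral GTPases Mx1 and Mx2 were at 48.75 and 29.84 FPKM in that library, against at most 2.39 and 6.50 FPKM in the others.

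Genes that act with GBPs and IRGs were grouped by their roles. In the list of caspase-11 and pyroptosis genes 10 of 11 were tested, 0 passed the adjusted threshold and 7 lay below the median gene (median -0.26, with and without LPS-ALI replicate 4), and none was 2-fold above the next library in LPS-ALI replicate 4. Casp4 was at 22.04 to 54.83 FPKM in LPS-ALI and at 7.34 to 23.72 FPKM in TMAO, with a relative difference of -0.63 (exact permutation p = 0.0794) and of -0.39 with LPS-ALI replicate 4 left out. Gsdmd, the pore protein cut by caspase-11, was at 24.60 to 44.65 FPKM in LPS-ALI and 12.98 to 28.30 FPKM in TMAO. Its relative difference was -0.55 (exact permutation p = 0.0317, limma adjusted p = 0.998), and -0.43 without LPS-ALI replicate 4 (exact permutation p = 0.0893). Pycard, the ASC adaptor, was at 17.07 to 38.36 FPKM in LPS-ALI and at 0.36 to 11.43 FPKM in TMAO without overlap. Its relative difference was -1.36 (exact permutation p = 0.0159, limma adjusted p = 0.998), and -1.50 without LPS-ALI replicate 4 (exact permutation p = 0.0714). Like Psme2, Pycard was named for its small limma p within its list. A list of 14 genes covered the conjugation of LC3 and GABARAP, whose machinery GBPs and IRGs need to reach vacuoles. It held the conjugating enzymes, the conjugated proteins themselves, Becn1 and Sqstm1. Of the 14, 0 passed and 4 lay below the median gene, with a median of 0.09, or 0.16 without LPS-ALI replicate 4. Map1lc3b, which encodes the conjugated protein LC3B, and Sqstm1, the p62 adaptor, were at least 2-fold above the next library in LPS-ALI replicate 4. None of the conjugating enzymes was. Of 8 prenylation genes, whose products attach lipid anchors such as those of Gbp2 and Gbp5, 0 passed and 3 lay below, with a median of 0.01, or -0.0050 without LPS-ALI replicate 4. Among 12 inducers of interferon gamma and their receptors 7 were tested, 0 passed and 4 lay below, with a median of -0.09, or -0.0052 without LPS-ALI replicate 4. Il12b, Il12rb1, Il12rb2, Tbx21 and Eomes were under the filter.

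**Figure D5:**
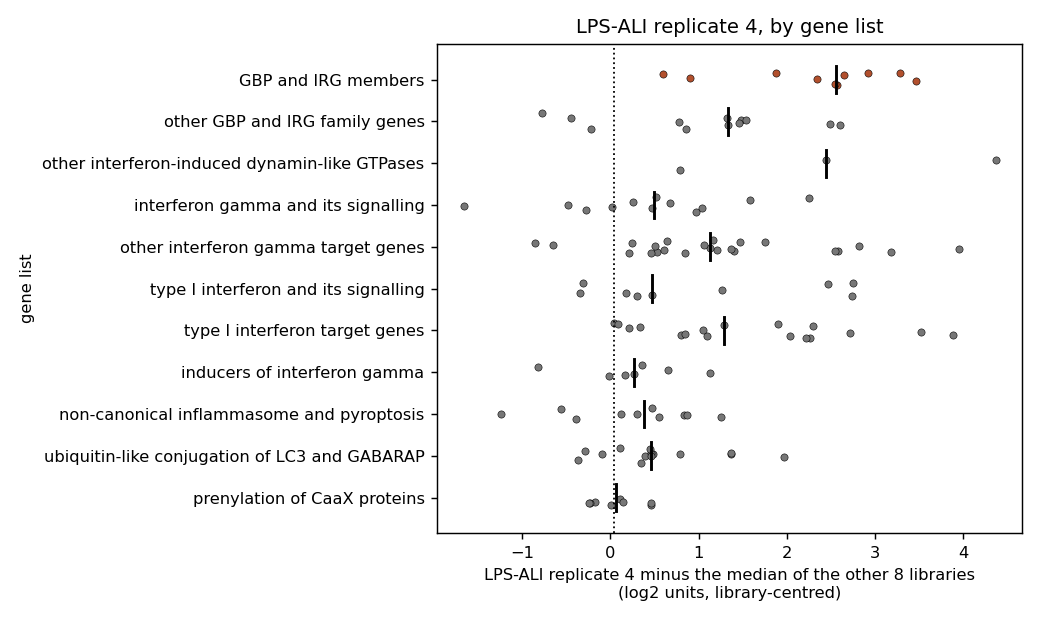
Library-centred log2 level in LPS-ALI replicate 4 minus the median of the other 8 libraries for each tested gene of the lists, with list medians as bars and the median of all tested genes, 0.04, as a dotted line. The median is 2.56 for the 10 GBP and IRG genes (red), 2.44 for the other dynamin-like GTPases (3 genes), 1.33 for the other GBP and IRG family genes, 1.13 for other interferon gamma targets, 1.29 for type I interferon targets and 0.06 for prenylation genes.

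By correlation with the mean of the 10 genes over the 9 libraries, the 10 most similar of the other tested genes were Rnf114, Irf7, Tes, Ifit2, Ifit1, Azi2, Tgtp1, Oasl2, Gm12250 and Ifit3b. Pearson's r on library-centred values ran from 0.986 for Rnf114 to 0.971 for Ifit3b, and from 0.746 to 0.947 without LPS-ALI replicates 3 and 4, which lie farthest from the median. Irf7, an interferon regulatory factor, was at 1215.02 FPKM in LPS-ALI replicate 4, 118.26 FPKM in replicate 3 and 82.63 to 306.19 FPKM in the other 7 libraries. These r describe genes picked for their likeness and share the depth of the libraries.

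Cell type markers were read beside the GBP and IRG genes. T and NK cell markers summed to 32.2 to 89.2 FPKM in LPS-ALI and to 12.0 to 22.6 FPKM in TMAO, without overlap and highest in LPS-ALI replicate 4. Of single tested genes, 1.36% were without overlap in that direction. Of the 13 markers, 6 passed the filter, and Cd3e, Cd3d, Cd8a, Cd4, Ncr1, Klrb1c and Prf1 did not. Among the 6, 4 lay below the median gene and 2 above it. In LPS-ALI replicate 4, 3 of the 6 were highest, and Gzmb alone was at least 2-fold above the next library. Alveolar macrophage markers summed to 512 FPKM in LPS-ALI replicate 4 and to 151 to 384 FPKM elsewhere, with 6 of 7 tested and 2 of them highest there. Platelet markers summed to 76.5 FPKM there and to 18.6 to 42.5 FPKM elsewhere, with 4 of 6 tested and 3 highest there. Of 8 neutrophil markers, all tested, 1 was highest there, and their sum of 7502 FPKM was below the 7681 to 20624 FPKM of the others. Monocyte and interstitial macrophage markers, 7 of 9 tested, summed to 132 to 146 FPKM in LPS-ALI and to 66.9 to 146 FPKM in TMAO. The part of these cell types in the GBP and IRG levels was not tested.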

How the data were processed

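RNA sequencing measured gene expression in 9 lungs, 4 LPS-ALI and 5 TMAO, grouped by the labels. Per the labels' protocols, Trizol-extracted RNA was depleted of ribosomal RNA before library preparation with NEBNext Ultra II. The submitters' processing notes name featureCounts, HISAT2, fastp and SAMtools and the build mm10, while no source used here gives their versions, the annotation, the strand setting or the gene lengths. The authors deposited FPKM, with 1 column per library and no pooling.

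FPKM are not counts, so limma 3.58.1 in R 4.3.3 was used on log2(FPKM + 1), with a mean-variance trend, two-sided, Benjamini-Hochberg adjustment and a threshold of 0.05. The test took the 11817 genes that reached 1 FPKM in 4 or more libraries. Exact two-sided permutation covered all assignments of the 9 libraries to groups of 4 and 5, with 0.00794 as the smallest possible p. Total reads are unknown and only relative depth was estimated, so no counting intervals are given. In simulated data for this comparison over 11817 genes, a 2-fold change was called in 5% of the genes given one and a 4-fold change in 63%. Beside them 8 unchanged genes were called, and 0 genes when nothing changed.

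The 10 genes and all lists were chosen with earlier results of these data known. Beside the 10, the naming rule took 6 relatives, 11 pathway genes (1 of them is not reported here), up to 3 tested genes per further list with the smallest limma p, and the 10 genes most correlated with the mean of the 10. Cxcl9, Cxcl10, Nlrc5 and Ido1 as examples of the 2-fold step, and the genes under the filter, were named after their values were seen. Identifiers of 52125 of 52381 genes matched GENCODE M21, and promoter windows came from RefSeq on GRCm38.p6. Alternatives covered pseudocount, filter, scaling, variance model, replicate block and left-out libraries. Python 3.11.15 with pandas 2.3.3 and matplotlib 3.10.9 served for tables and plots.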

Additional observations from a re-analysis of the deposited data

Results flagged for a closer look

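Samples far from the rest of their group were looked for in the 4 LPS-ALI and the 5 TMAO libraries by Dixon's criterion, in which chance marks about 1 group in 20. Of 106 groups checked 21 were marked, 17 of them for LPS-ALI replicate 4. The groups come from chosen genes that share the same libraries, and LPS-ALI replicate 4 was the highest library for 26.9% of tested genes. The rate of 1 in 20 is therefore no yardstick for these counts, and no share over all tested genes was computed. Among the 10 GBP and IRG genes 6 were marked, all for that library: Gbp2 at 276.91 FPKM, Gbp3 at 175.97, Gbp4 at 150.8, Gbp5 at 108.54, Igtp at 129.14 and Iigp1 at 176.76 FPKM. Gbp6, Gbp7, Irgm1 and Irgm2 were not marked, although Irgm1 and Gbp6 were 4.09-fold and 3.00-fold above the next library.

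Of the relatives and interferon genes, Gm12250 at 27.75 FPKM, Mx1 at 48.75, Mx2 at 29.84, Irf8 at 25.43, Nlrc5 at 18.44 and Zbp1 at 243.98 FPKM stood apart in LPS-ALI replicate 4. The feedback genes Ptpn2 at 51.95 FPKM and Socs3 at 52.61 FPKM, the interleukin 18 receptor gene Il18rap at 2.99 FPKM and the autophagy genes Sqstm1 at 595.93 and Map1lc3b at 365.65 FPKM did so too. In other libraries, Pycard stood apart at 38.36 FPKM in LPS-ALI replicate 3 and at 0.36 FPKM in TMAO replicate 5. Socs1 was low at 0.71 FPKM in TMAO replicate 5, and Gbp2b was at 0.04 FPKM in TMAO replicate 3 and at 0 in the other 4 TMAO libraries.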

How the results depend on the processing

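The count of GBP and IRG genes past the adjusted threshold was 0 under every alternative run. The count over all genes, 0 with all libraries, was 51 with library weights and 0 to 3 when 1 library was left out, with 1 when LPS-ALI replicate 3 and 3 when TMAO replicate 4 was the one left out. The median relative difference of the 10 genes ran from -1.12 to 0.08 when 1 library was left out and was -0.12 with library weights and 0.22 without LPS-ALI replicate 4 and TMAO replicate 5 together. Among the 10 genes and the tested relatives and pathway genes named by the fixed rule, the sign of the relative difference changed only where named next, and the cause was not tested. With 1 library left out, the relative differences ranged from -1.25 to 0.075 for Gbp2, -1.10 to 0.094 for Gbp3, -1.14 to 0.18 for Gbp4, -0.94 to 0.12 for Gbp6, -0.43 to 0.14 for Gbp7, -0.99 to 0.066 for Irgm1 and -0.26 to 0.25 for Irgm2. They ranged from -0.53 to 0.052 for Gbp9, -1.17 to 0.12 for Tgtp1, -0.67 to 0.068 for Tgtp2, -0.32 to 0.44 for Ifi47, -0.81 to 0.27 for Gm12250, -0.21 to 0.15 for Irf1 and -1.73 to 0.40 for Cxcl9. Without LPS-ALI replicate 4 and TMAO replicate 5 together, Gbp2 was at 0.22, Gbp3 at 0.31, Gbp4 at 0.35, Gbp5 at 0.044, Gbp6 at 0.35, Gbp7 at 0.23, Irgm1 at 0.12, Igtp at 0.0025 and Iigp1 at 0.087. There Gbp9 was at 0.25, Tgtp1 at 0.19, Tgtp2 at 0.12, Gm12250 at 0.43, Irf1 at 0.30, Cxcl9 at 0.41 and Irf9 at 0.042. With library weights Gbp3 was at 0.015, Gbp7 at 0.045, Gm12250 at 0.31 and Irf1 at 0.19. Without a filter Irgm2 was at -0.066 and Ifi47 at -0.079. Without the X-coded libraries Irgm2 was at -0.12, Irf1 at 0.0072 and Socs1 at 0.020. Irf1 was at 0.012 with a pseudocount of 0.1, 0.015 with median-of-ratios scaling and 0.049 with quantile normalization.

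The mouse numbers did not pair the samples: deviations of same-numbered mice correlated at 0.06, -0.01, -0.03 and -0.13. With the replicate block over mice 1 to 4, 0 genes passed, the median of the 10 genes was -0.42, and Gbp9 was at 0.0043 and Irf1 at 0.11. Low depth and a low library-wide scale in TMAO replicate 5 limit values such as its 0.45 FPKM for Gbp5. Simulated 2-fold changes were seldom called at this sample size.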

Other observations

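The ratio of Gbp7 to Irgm2 within a library was the narrowest of those computed and was noticed after the values were seen, so it was not tested. It was 0.43, 0.41, 0.41 and 0.51 in LPS-ALI replicates 1 to 4 and 0.38, 0.37, 0.39, 0.39 and 0.37 in TMAO replicates 1 to 5. All LPS-ALI libraries lay above all TMAO libraries, by a narrow gap from 0.393 to 0.407, although the level of either gene varied more than 3-fold between libraries. The ratios of the other genes to Irgm2 overlapped between the groups. How often ratios of tested genes separate in this way was not computed, so the lack of overlap is no result about this pair.

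Tgtp1 and Tgtp2, a pair of near-identical IRG copies on chr11, kept a Tgtp1 to Tgtp2 ratio of 0.36 to 0.59 in 8 libraries, and the ratio was 1.41 in LPS-ALI replicate 4. Tgtp1 and Igtp thus showed a large step in that library, and their close relatives Tgtp2 and Irgm2 a small one. In both pairs a share of the annotated transcript sequence is common to the copies, and its part in these ratios was not tested.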
